A study of Mus musculus with 14 samples.

Results

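Genes of 10 families that splice pre-mRNA, form its 3′ end or unwind RNA were measured in mouse spleen cells. Members were taken by symbol, as every probe set whose only gene symbol begins with Cpsf, Cstf, Srsf (or its older form Sfrs), Hnrnp, Sf3a, Sf3b, Snrp, Prpf, U2af, Rbm followed by a digit or x, or Ddx followed by a digit. No measured value entered this choice. It gave 328 of 36899 probe sets, standing for 141 of 15964 named genes, with 135 probe sets on array set A, 106 on set B and 87 on set C. The rule also took in the antisense genes Rbm3os and Rbm46os and the pseudogene Snrp1c-ps2. The study compared FDC-E, spleen cells enriched for follicular dendritic cells (FDC), with FDC-D, spleen cells depleted of FDC. FDC are the stromal cells of B cell follicles that display antigen to B cells. Sets A and C held 3 FDC-E and 2 FDC-D arrays each and set B held 2 of each. Both groups are primary splenocytes per the labels, which do not state strain, age, sex, treatment, the way of enrichment or any pooling of animals. Whether the arrays of a group stem from different animals is not said, and the p-values therefore speak only of the spread among these samples, which could be technical.

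Introns are removed by the spliceosome, a set of small nuclear RNAs carrying a ring of Sm proteins and particle-specific partners, which recognises the start of the intron, its branch point and its end in turn. SR proteins and hnRNPs bind the pre-mRNA and favour or oppose the use of particular exons. The 3′ end is made by a complex that reads the AAUAAA signal, cuts the RNA downstream and adds the poly(A) tail. In lymphocytes this machinery is known for the exon choice of Ptprc, the CD45 gene, and for the switch of immunoglobulin heavy chain mRNA from its membrane to its secreted form. The Ddx family was kept whole by the rule, although many DEAD-box helicases serve ribosome assembly, translation or RNA sensing.

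The groups differed in FDC markers as their names say, but also in markers of other cell types. Endothelial markers had a larger median log2 fold change of FDC-E over FDC-D (3.71) than FDC markers (2.15). All 10 FDC marker genes tested, among them Cxcl13 and Clu, were higher in FDC-E, as were all 8 endothelial and all 8 macrophage markers, and the 7 tested of 8 B cell markers and 7 tested of 8 T cell markers were lower. On set A the summed intensity of 6 B cell markers was 5091 to 7123 on the FDC-E arrays and 20549 to 20637 on the FDC-D arrays. For 7 T cell markers it was 1570 and 1603 on the 2 FDC-E arrays with a value for each, against 5460 and 5603 on the FDC-D arrays. For 6 endothelial markers it was 15962 to 17999 on the FDC-E arrays, against 1395 and 1436 on the FDC-D arrays. For 8 macrophage markers it was 15399 to 17952 in FDC-E and 5741 and 6776 in FDC-D, and for 10 FDC markers 23224 to 27626 in FDC-E and 5950 and 6871 in FDC-D. No tested marker stood at 0. Of 11 cell cycle genes 10 did not pass and Mcm5 was lower in FDC-E. The part that these shifts in cell content play in the values of the members was not tested. In bulk RNA, fewer cells of a type and less of an RNA per cell cannot be told apart.

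Where splicing and 3′ processing genes changed, they were mostly lower in the FDC-E fraction, by small amounts. With the brightest tested probe set standing for each gene, 122 of the 141 member genes had values above the filter on dim probe sets. Of these, 44 were lower in FDC-E, 8 were higher and 70 did not pass (limma, adjusted p under 0.05 over all tested probe sets of the array set). The falls made up 36.1% of the member genes tested, beside a background of 14.4% of all 12267 genes tested, and the rises 6.56% beside a background of 19.2%. Of the calls, 84.6% were falls among members and 42.9% among all genes. The median log2 fold change, FDC-E over FDC-D on log2(intensity + pseudocount), was -0.17 for the members and 0.02 for all genes. By this fitted fold of the brightest probe set, only Rbm39 moved 2-fold or more, 0.82% of the tested members, against 6.07% of all tested genes. Other probe sets of Rbm25, Ddx6 and Rbm5 also moved 2-fold or more, and the pseudocount shrinks the folds of dim probe sets. Without FDC-D sample 1 the counts were 26 lower and 3 higher, and without FDC-D sample 2 they were 31 and 4. The share of falls among calls was 89.7% and 88.6% for members and 39.7% and 37.9% for all genes in these fits.

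**Figure D1:**
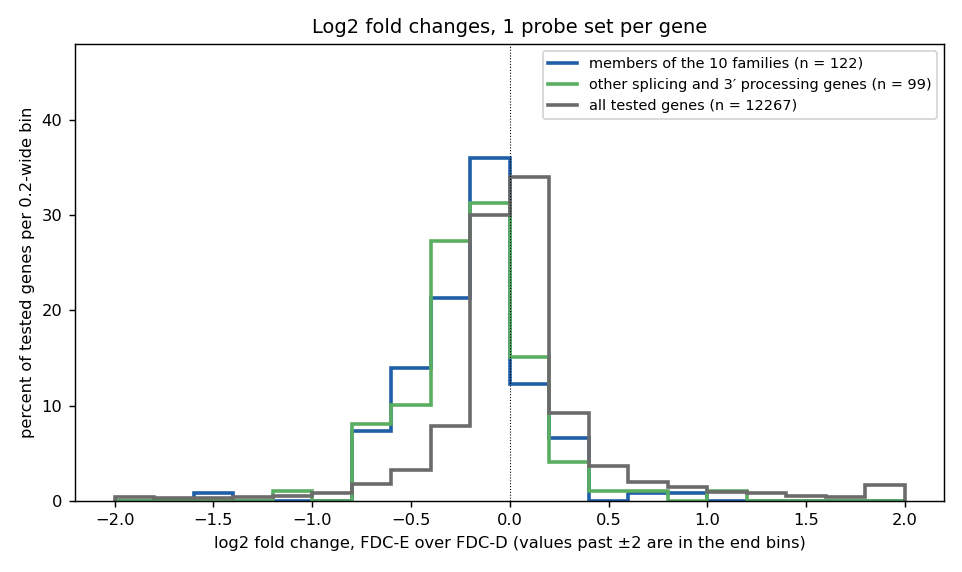
Distribution of the log2 fold change of FDC-E over FDC-D, with 1 probe set per gene, for the 122 members, 99 other genes of the same pathways and all 12267 tested genes; the y axis is the percent of each group of genes per bin. The members and the other pathway genes lie left of all genes, with medians of -0.17 and -0.19 against 0.02.

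Falls outnumbered rises on each array set. On set A, 44 of 111 tested member probe sets were lower in FDC-E (39.6%, background 17.9%) and 10 were higher (background 23.1%). On set B, 26 of 61 were lower (42.6%, background 17.0%) and 1 was higher (background 19.4%). On set C, 8 of 54 were lower (14.8%, background 8.73%) and 2 were higher (background 9.5%). Without FDC-D sample 1 the falls were 24, 14 and 3 and the rises 5, 1 and 0 on A, B and C, and without FDC-D sample 2 the falls were 29, 19 and 3 and the rises 4, 1 and 1. On C the rises were also 1 without FDC-E sample 2 or 3, and with plain probe sets alone C held 3 falls and 0 rises. The members' median log2 fold changes were -0.20 on A, -0.14 on B and -0.01 on C, beside 0.02, 0.00 and 0.02 for all tested probe sets. The sign on C was not stable, since without FDC-D sample 2 the members' median there was 0.024, against 0.016 for all. Every FDC-E array lay below every FDC-D array for 63 of the 111 members on A (background 28.6%), 38 of the 61 on B (background 33.3%) and 15 of the 54 on C (background 20.5%). Every FDC-E array lay above every FDC-D array for 14 on A (background 34.7%), 5 on B (background 34.4%) and 12 on C (background 27.1%). For all 91 member probe sets that passed, the FDC-E and FDC-D arrays did not overlap. Passing the threshold with so few arrays favours such separation, so this is no separate result about the members. The same share among all passing probe sets is not given. The remaining 102 member probe sets were too dim to test, and 19 genes had no tested probe set at all, among them Cstf3, Hnrnpc, Prpf18 and Rbm22.

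The deposited scale left the FDC-E arrays slightly brighter, with median intensities of 264.7 to 279.0 in FDC-E and 244.0 and 250.8 in FDC-D on set A. Quantile normalization and scaling each array to the median array (median scaling) raised the member falls to 62 and 59 genes, with 7 and 5 rises. They also moved the share of falls among all calls, from 42.9% to 53.4% and 54.9%. Of all tested genes, 14.4% fell as reported, and 18.8% and 19.1% fell under these scalings. All 78 member probe sets that were lower as reported were lower under both scalings, and 8 of the 13 that were higher stayed so.

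Read by family, with 1 probe set per gene, the falls made up 71.4% of the 7 tested Cpsf genes, 56.2% of 16 Hnrnp, 50.0% of 8 Sf3, 44.4% of 9 Srsf and 32.1% of 28 Rbm genes, beside the 14.4% of all genes. They made up 33.3% each of the 3 Cstf, 3 U2af and 9 Snrp genes and 20.7% of 29 Ddx genes, and 2 of 10 Prpf genes fell, so that the Ddx and Prpf shares lie near that of all genes. Rises ran from 0 to 12.5% in the 10 families, beside 19.2%. Over all tested probe sets in place of 1 per gene, the medians were -0.33 for Cpsf, -0.25 for Sf3, -0.24 for U2af and -0.17 for Hnrnp, so their order changes.

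**Figure D2:**
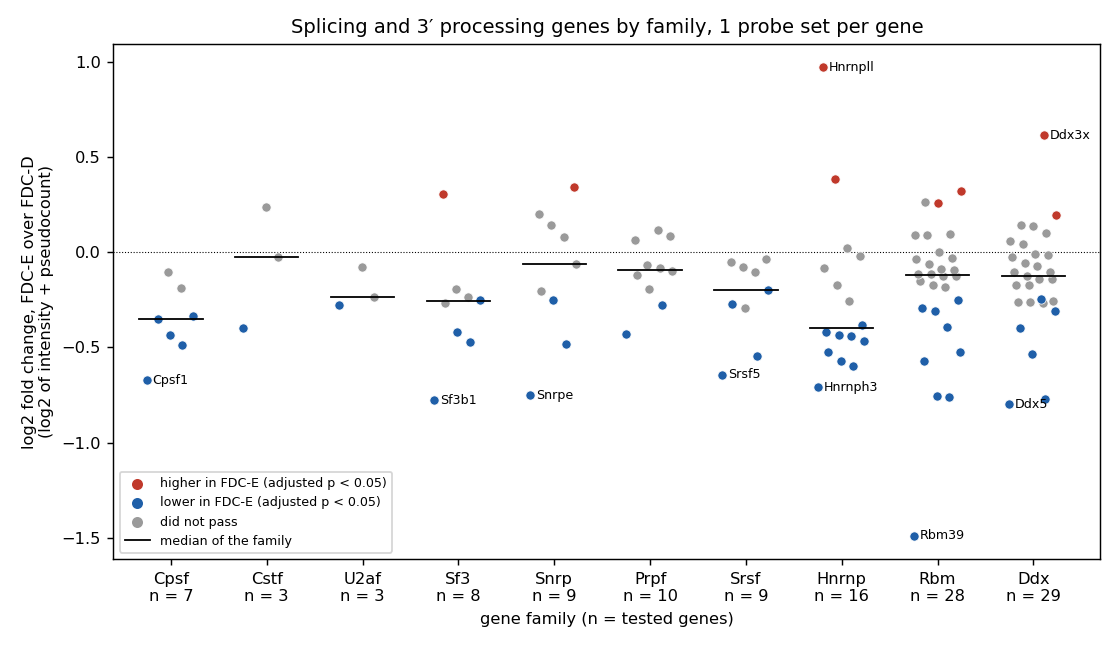
Log2 fold change of FDC-E over FDC-D for each tested member gene, by family, with 1 probe set per gene and the family median as a bar. Family medians run from -0.40 for Hnrnp to -0.03 for Cstf, and Rbm39 (-1.49) and Hnrnpll (0.97) lie farthest out.

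Most subunits that read the poly(A) signal and cut the RNA were lower in FDC-E. Of 7 tested Cpsf genes 5 were lower in FDC-E and none was higher, with a median log2 fold change of -0.35. Cpsf3, the endonuclease that cuts the pre-mRNA, had intensities of 483, 459.7 and 449 on the FDC-E arrays, against 731 and 644 on the FDC-D arrays. The groups did not overlap, and Cpsf3 fell 1.40-fold (adjusted p = 0.00133); its dimmer probe set on set C did not pass (log2 fold change 0.0032). Cpsf1, the large scaffold subunit, had 457 and 530.4 on the FDC-E arrays, against 909.6 and 763 on the FDC-D arrays of set B. It fell 1.59-fold (adjusted p = 0.000263). A dimmer Cpsf1 probe set on B fell 1.25-fold (log2 fold change -0.32). That log2 fold change was -0.13 without FDC-E sample 2, -0.39 without FDC-D sample 1 and -0.25 without FDC-D sample 2. Cpsf4, which helps to read the AAUAAA signal, had 347, 369 and 369.6 on the FDC-E arrays, against 484 and 486 on the FDC-D arrays and fell 1.27-fold. Both large subunits of cleavage factor I, which binds upstream of the cut and steers the choice of poly(A) site, also fell. Cpsf7 had 881, 927 and 951 in FDC-E and 1311 and 1239 in FDC-D and fell 1.35-fold. Cpsf6 had 207 and 229 in FDC-E and 320.1 and 274 in FDC-D and fell 1.26-fold, a call that did not hold without FDC-D sample 1 (adjusted p = 0.0536). Of its dimmer probe sets, 1 fell 1.27-fold and 1 did not pass (log2 fold change -0.16). Cpsf2 and Cpsf4l missed the threshold at log2 fold changes of -0.10 and -0.19.

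The cleavage stimulation factor did not follow as a unit. Cstf2, the subunit that binds the GU-rich element beyond the cut and is known for its part in the switch to secreted IgM in B cells, had 247, 234 and 224 on the FDC-E arrays, against 230.4 and 251 on the FDC-D arrays of set C. These values overlapped, and neither this probe set nor the one on set A passed (log2 fold changes of -0.03 and -0.07). Its paralogue Cstf2t, best known from the testis, had 159, 193 and 166 on the FDC-E arrays, against 267 and 244 on the FDC-D arrays and fell 1.32-fold (adjusted p = 0.00470), while its probe set on C had 0.05. Cstf1 had 2103, 1859 and 2019 in FDC-E and 1725 and 1621 in FDC-D, so every FDC-E array was above both FDC-D arrays, but it missed the threshold (log2 fold change 0.24, adjusted p = 0.0514). It passed without FDC-E sample 2 (0.0246) and with no trend in the prior variance (0.0418).

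The proteins that find the branch point and the end of the intron were mostly lower or did not pass. Of 8 tested Sf3a and Sf3b genes 4 were lower, 1 was higher and 3 did not pass, and of 3 U2af genes 1 was lower and 2 did not pass. Sf3b1, the part of the U2 particle that clamps the branch point, had 684, 1046 and 773 on the FDC-E arrays, against 1372 and 1578 on the FDC-D arrays. No FDC-E array reached an FDC-D array, and Sf3b1 fell 1.71-fold at this probe set (adjusted p = 0.00432) and 1.51-fold at another. Its partners Sf3a1 and Sf3b5 fell 1.34-fold and 1.39-fold. Sf3b6, which lies at the branch point itself, fell 1.19-fold, but did not pass without FDC-D sample 1 (adjusted p = 0.192) or 2 (0.204), without FDC-E sample 3 (0.129) or with a block for replicate number (0.203). Sf3a3, Sf3b2 and Sf3b3 missed the threshold at log2 fold changes of -0.20, -0.27 and -0.24, that of Sf3b2 fitted without FDC-E sample 2, which has no value there.

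Sf3a2 was the 1 member with probe sets that passed in opposite directions. One had 1484, 1647 and 1551 on the FDC-E arrays, against 2123 and 1925 on the FDC-D arrays and fell 1.28-fold, and the other had 6531, 5578 and 5825 on the FDC-E arrays, against 4722 and 4893 on the FDC-D arrays and rose 1.24-fold. Both cite the same source transcript, and both carry a suffix that marks probe sets open to other transcripts or chosen under relaxed rules. Neither passed without FDC-D sample 1 (adjusted p = 0.134 and 0.153), and the second did not pass without FDC-D sample 2 (0.0973) or with median scaling (0.0960).

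U2af2, which binds the pyrimidine tract before the end of the intron, had 2284, 2689.7 and 2422 on the FDC-E arrays, against 3040.2 and 2962 on the FDC-D arrays and fell 1.21-fold. This call was not stable, with adjusted p = 0.211 without FDC-D sample 1, 0.156 without FDC-D sample 2, 0.0530 and 0.0975 without FDC-E samples 1 and 3, and 0.113 with the replicate block. Its partner U2af1, which reads the closing AG, had 579, 732 and 577 in FDC-E and 807 and 702 in FDC-D. The groups overlapped and it did not pass (log2 fold change -0.24, adjusted p = 0.134), though it did under quantile normalization (0.0198) and without FDC-E sample 2 (0.0207).

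Among the Sm ring and snRNP-specific proteins, 3 of 9 genes were lower, 1 was higher and 5 did not pass, with a median log2 fold change of -0.06. The 3 that fell all belong to the ring. Snrpe had 1225, 1344 and 990.4 on the FDC-E arrays, against 2051 and 2034 on the FDC-D arrays, a clear separation of the groups, and fell 1.68-fold (adjusted p = 0.00127). Snrpg had 899, 975 and 787 in FDC-E and 1289 and 1251 in FDC-D and fell 1.40-fold. Snrpf had 1379 and 1393 in FDC-E and 1669.7 and 1656 in FDC-D and fell 1.19-fold, which did not hold without FDC-D sample 1 (adjusted p = 0.0594) or 2 (0.0516). The ring protein Snrpb went the other way in level without passing, at 8693, 7831 and 8060.2 on the FDC-E arrays, against 7174 and 7046 on the FDC-D arrays (log2 fold change 0.20, adjusted p = 0.0675), and passed as higher under quantile normalization (0.0229) and without FDC-E sample 2 (0.0406). Snrpb2, of the U2 particle, had 974 and 839 on FDC-E arrays 1 and 3 and 697 and 692 on the FDC-D arrays, with no value on FDC-E array 2. It rose 1.27-fold, a call lost under quantile normalization (adjusted p = 0.0765), with median scaling (0.0749), with the block (0.0528) and without FDC-D sample 1 (0.127) or 2 (0.140). Snrpd3, Snrpc and Snrpa1 did not pass, nor did the pseudogene Snrp1c-ps2.

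The Prpf proteins, which build and drive the tri-snRNP and the catalytic centre, mostly did not pass. Of 10 tested, 2 were lower, none was higher and 8 did not pass. Prpf8, the protein at the heart of the catalytic centre, had 843, 963 and 844 on the FDC-E arrays, against 943 and 910.2 on the FDC-D arrays. The groups overlapped (log2 fold change -0.06 ± 0.08, SE), and the probe set on C did not pass (0.10). Prpf4b, a kinase that acts on the tri-snRNP, had 272, 319.5 and 320.04 on the FDC-E arrays, against 442 and 413 on the FDC-D arrays of set C and fell 1.35-fold (adjusted p = 0.00392), with a like fall on set B (1.28-fold). Another Prpf4b probe set on C did not pass (log2 fold change -0.10). Prpf3, of the U4/U6 particle, fell 1.21-fold. Prpf38b depended on the probe set. On set A it had 195, 278 and 250.2 on the FDC-E arrays, against 461 and 572 on the FDC-D arrays and fell 1.84-fold (adjusted p = 0.000631), whereas its brighter probe sets on B had log2 fold changes of -0.03 and -0.08 and did not pass.

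SR proteins fell or did not pass, and none of the 9 tested was higher. With 1 probe set each, 4 were lower and the median log2 fold change was -0.20. Srsf6 had 789, 985 and 935 on the FDC-E arrays, against 1575 and 1762 on the FDC-D arrays of set A. Both FDC-D arrays stood well above all 3 FDC-E arrays, and it fell 1.78-fold (adjusted p = 0.00035). On set B it fell 1.36-fold at 1 probe set and did not pass at the brightest (log2 fold change -0.30, adjusted p = 0.0686), which passed in 5 of the alternatives. Srsf11 had 621, 804 and 735 on the FDC-E arrays, against 1268 and 1311 on the FDC-D arrays and fell 1.71-fold on A. On B it fell 1.69-fold at 1 probe set and 1.15-fold at the brightest, a call at the brightest that was lost when any 1 array of set B was left out (adjusted p = 0.0618 to 0.141). On C neither Srsf11 probe set passed (log2 fold changes of 0.18 and 0.04), nor did that of Srsf6 (-0.09).

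Srsf5 had 1837, 2768 and 2389 on the FDC-E arrays, against 3755 and 3529 on the FDC-D arrays and fell 1.56-fold (adjusted p = 0.00987), with 0.0688 without FDC-D sample 1. Srsf10, which represses splicing in its dephosphorylated form, had 156, 219 and 174 in FDC-E and 291 and 321 in FDC-D and fell 1.46-fold. Srsf3 had 309.7, 361 and 366 in FDC-E and 407 and 463 in FDC-D and fell 1.21-fold, with adjusted p = 0.0653 and 0.300 without FDC-D sample 1 or 2, 0.0551 without FDC-E sample 3 and 0.0532 with no filter. Srsf1, a general activator of exon inclusion, fell 1.38-fold at 1 probe set of A, at 116, 163 and 139 on the FDC-E arrays, against 252 and 199 on the FDC-D arrays. Its brightest probe set, on B, had 715 and 613 in FDC-E and 621 and 794 in FDC-D and overlapped (log2 fold change -0.08), and the others, on A and C, did not pass (-0.16 and -0.08). Srsf2 had 3840.4, 3930.3 and 3654 on the FDC-E arrays, against 3755 and 4051 on the FDC-D arrays. The groups overlapped and it did not pass (-0.03 ± 0.08, SE), nor at its other probe set (0.13), and Srsf4 and Srsf9 did not pass either.

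**Figure D3:**
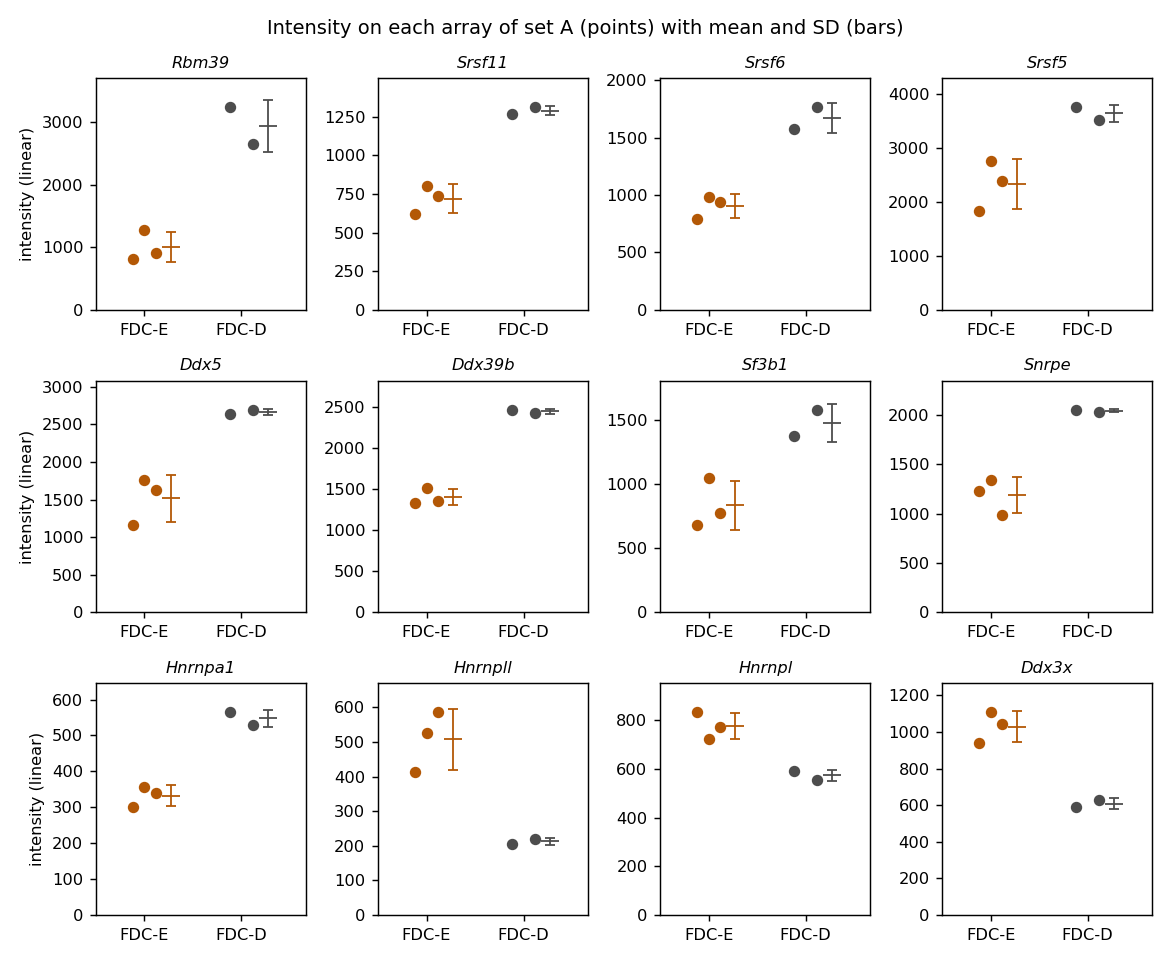
Intensity on each array of set A for 12 members, FDC-E left and FDC-D right, with mean and SD beside the points (n = 3 and 2). In the first 9 panels every FDC-E array lies below both FDC-D arrays, and in the panels of Hnrnpll, Hnrnpl and Ddx3x every FDC-E array lies above both.

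Sequence upstream of the gene start was set beside these values for genes that moved together. RefSeq promoter windows of assembly GRCm38.p6 were found for 123 of the 141 member genes, 150 windows in all, and the 250 bases before the start were searched on both strands. The letters CCGGAAG, a core bound by ETS factors, occurred in 24.7% of member windows and in 6.91% of all 32851 windows, which include those of non-coding and predicted genes. They occurred in 27.8% of the 54 windows of genes lower in FDC-E, 33.3% of the 6 windows of genes that were higher and 20.8% of the 77 windows of genes that did not pass. The letters CCAAT occurred in 44.7% of member windows (33.8% of all) and TATAAA in 8.0% (12.4% of all). None of these motifs contains another, and a match describes the sequence only. The windows of 2 falling SR genes, of the falling export helicase gene Ddx39b and of the rising helicase gene Ddx3x are shown 5′ to 3′ on the strand of the gene, with CCGGAAG or its reverse complement CTTCCGG in capitals. They lie at chr3:158036607-158036856 (minus strand) for Srsf11, the first of 2 windows, chr12:80945249-80945498 (plus) for Srsf5, chr17:35241496-35241745 (plus) for Ddx39b and chrX:13280772-13281021 (plus) for Ddx3x.
Srsf11: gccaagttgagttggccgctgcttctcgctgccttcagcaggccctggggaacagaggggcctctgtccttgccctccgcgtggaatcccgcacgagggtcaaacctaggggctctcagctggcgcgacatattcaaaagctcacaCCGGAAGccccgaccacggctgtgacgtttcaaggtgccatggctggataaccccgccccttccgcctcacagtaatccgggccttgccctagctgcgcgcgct
Srsf5: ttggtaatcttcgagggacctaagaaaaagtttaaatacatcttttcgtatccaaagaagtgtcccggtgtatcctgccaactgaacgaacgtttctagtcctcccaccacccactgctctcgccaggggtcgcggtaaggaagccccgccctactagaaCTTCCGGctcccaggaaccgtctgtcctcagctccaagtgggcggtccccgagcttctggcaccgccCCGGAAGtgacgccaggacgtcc
Ddx39b: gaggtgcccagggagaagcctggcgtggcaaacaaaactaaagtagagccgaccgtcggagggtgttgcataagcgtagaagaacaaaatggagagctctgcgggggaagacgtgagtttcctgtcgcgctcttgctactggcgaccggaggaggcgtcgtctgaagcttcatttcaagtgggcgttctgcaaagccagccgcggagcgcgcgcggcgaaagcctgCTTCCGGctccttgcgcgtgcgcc
Ddx3x: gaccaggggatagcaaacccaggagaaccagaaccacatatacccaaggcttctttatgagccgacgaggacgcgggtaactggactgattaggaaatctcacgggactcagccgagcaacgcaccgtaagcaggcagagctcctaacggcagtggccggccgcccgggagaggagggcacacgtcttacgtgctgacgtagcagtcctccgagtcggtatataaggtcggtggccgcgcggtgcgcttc
Srsf11 holds the letters at 104 bases before its start, Srsf5 at 90 and 23 bases and Ddx39b at 24 bases, and the Ddx3x window holds none. These windows are picked examples and do not show a link between the letters and the direction of change. The share with the letters was 27.8% of 54 windows of falling genes and 33.3% of 6 windows of rising genes.

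hnRNPs had a median log2 fold change of -0.40 with 1 probe set per gene and -0.17 over all 25 tested probe sets. Of 16 tested genes 9 were lower, 2 were higher and 5 did not pass. Hnrnph3, of the hnRNP H and F group, had 702, 941 and 847 on the FDC-E arrays, against 1354 and 1458 on the FDC-D arrays and fell 1.64-fold (adjusted p = 0.00138). Hnrnpa1, an abundant repressor of exon use that also shuttles with mRNA, had 301, 357 and 339 on the FDC-E arrays, against 564 and 529.97 on the FDC-D arrays. The groups were well apart, and it fell 1.51-fold (adjusted p = 0.0005). Hnrnpa2b1 had 1487, 1899 and 1705 on the FDC-E arrays, against 2274 and 2460.5 on the FDC-D arrays and fell 1.38-fold, with adjusted p = 0.0906 without FDC-D sample 2. Hnrnph1, a binder of G-rich runs, had 1721, 2021 and 2195 in FDC-E and 2759 and 2626 in FDC-D and fell 1.35-fold, with adjusted p = 0.0996 and 0.0587 without FDC-D sample 1 or 2.

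Hnrnpd, known as Auf1 for its part in the decay of AU-rich mRNA, fell 1.48-fold, and Hnrnpul1 fell 1.36-fold. Hnrnpm, a splicing repressor, fell 1.34-fold on C and 1.37-fold on A (adjusted p = 0.0915 on A without FDC-D sample 1). Hnrnpdl fell 1.44-fold (0.0641 without FDC-D sample 1) and Hnrnpr 1.30-fold (0.0988 without FDC-D sample 2). Hnrnpd, Hnrnpdl and Hnrnpr each had another probe set that did not pass (log2 fold changes 0.15, 0.03 and -0.03). Hnrnpk, which binds C-rich RNA, had 377, 515 and 405 on the FDC-E arrays, against 502 and 560.01 on the FDC-D arrays. The groups overlapped and it did not pass (log2 fold change -0.26), except under quantile normalization (adjusted p = 0.0203), with median scaling (0.0415) and without FDC-E sample 2 (0.0114).

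Both hnRNPs that were higher in FDC-E are known for a part in skipping the variable exons of Ptprc in lymphocytes. The exon use of Ptprc was not tested. Hnrnpll, known in T cells as the regulator of that skipping that comes on with activation, had 412, 527 and 586 on the FDC-E arrays, against 206 and 221 on the FDC-D arrays of set A. Every FDC-E array was well above both FDC-D arrays, with means of 508 ± 88.5 (SD, n = 3) in FDC-E and 213 ± 10.04 (SD, n = 2) in FDC-D, and it rose 1.96-fold (adjusted p = 0.000308). On set B it had 171 and 214 on the FDC-E arrays, against 71.3 and 66.03 on the FDC-D arrays and rose 1.82-fold (adjusted p = 9.62e-06). Both fitted folds are smaller than the ratio of the mean intensities, because the pseudocount is added before the log. A dimmer probe set on C did not pass (log2 fold change 0.11). The rise on A and on B passed in every alternative run. Hnrnpl had 832, 723 and 773 on the FDC-E arrays, against 589.8 and 556 on the FDC-D arrays and rose 1.31-fold (adjusted p = 0.00574), with 0.0714 without FDC-D sample 2. One probe set of Hnrnpul2 also rose (1.17-fold), at 469, 457 and 484 in FDC-E and 381 and 394 in FDC-D. Its brightest probe set did not pass (log2 fold change -0.17), but passed as lower under both scalings (adjusted p = 0.0215 and 0.0298). The rise was lost under both scalings (adjusted p = 0.194 and 0.112), with the block (0.124) and without FDC-D sample 1 (0.183), FDC-D sample 2 (0.122) or FDC-E sample 3 (0.0859).

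RNA-binding Rbm genes held the largest fall of all members. Of 28 tested, 9 were lower, 2 were higher and 17 did not pass. Rbm39, a splicing factor related to U2af2, had 818, 1271 and 910.3 on the FDC-E arrays, against 3233 and 2642 on the FDC-D arrays. All 3 FDC-E arrays lay far below both FDC-D arrays, and it fell 2.81-fold (adjusted p = 0.000189). Its other probe sets fell 1.34-fold on A, 1.42-fold on B and 1.35-fold on C. That on C missed the threshold without FDC-E sample 2 (adjusted p = 0.0516), and the 1.34-fold fall on A without FDC-D sample 1 (0.0531).

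Rbm5 and Rbm6, neighbours on chromosome 9 that both act on alternative splicing, fell at all of their tested probe sets. Rbm5 had 846 and 920.4 on the FDC-E arrays, against 1528 and 1569.7 on the FDC-D arrays at its brightest and fell 1.69-fold (adjusted p = 1.26e-05), and its 4 other probe sets fell 1.31-fold to 2.09-fold. Rbm6 had 105, 99.8 and 99.1 in FDC-E and 189 and 199 in FDC-D on set A and fell 1.49-fold, and fell 1.79-fold on B. Rbm26, a nuclear RNA-binding protein gene, had 55.1, 82.1 and 74.2 on the FDC-E arrays, against 158 and 154 on the FDC-D arrays of set C and fell 1.70-fold, with 1.51-fold on B. These values are dim, so the fold is understated by the pseudocount.

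Rbm25, which sets the choice of 5′ splice site in Bcl2l1, fell by very different amounts. Its brightest probe set had 687 and 651 on the FDC-E arrays, against 835 and 858 on the FDC-D arrays of set B and fell 1.24-fold, while another on the same arrays had 156 and 123 on the FDC-E arrays, against 518 and 534 on the FDC-D arrays and fell 2.76-fold. One more on B and the one on A fell 1.18-fold and 1.68-fold, and the one on C did not pass (log2 fold change 0.17). Rbm33 fell 1.44-fold, with probe sets on B and C that did not pass (log2 fold changes of -0.05 and 0.10), and Rbm34 1.19-fold (adjusted p = 0.0504 for Rbm34 without FDC-D sample 1). Rbm38, a target of p53, fell 1.31-fold (adjusted p = 0.118 without FDC-D sample 1), and Rbm15, of the m6A writer complex, 1.23-fold, a call lost without FDC-D sample 1 or 2 (adjusted p = 0.0532 and 0.232), without FDC-E sample 2 or 3 (0.0617 and 0.0685) and with the block (0.0509).

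Rises in this family were small. Rbm18 had 365, 403 and 373 on the FDC-E arrays, against 276 and 295 on the FDC-D arrays and rose 1.25-fold (adjusted p = 0.00706), with 0.0862 without FDC-D sample 1. Rbm8a, the Y14 subunit of the exon junction complex, had 815, 782 and 753 on the FDC-E arrays, against 613 and 679.5 on the FDC-D arrays of set C and rose 1.20-fold. That call was lost without FDC-D sample 1 (adjusted p = 0.125) or FDC-E sample 2 (0.0573) and with the block (0.0819), and the Rbm8a probe set of A had a log2 fold change of -0.12. The X-linked Rbmx did not pass at any of 4 probe sets, with log2 fold changes of -0.17 to 0.01.

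**Figure D4:**
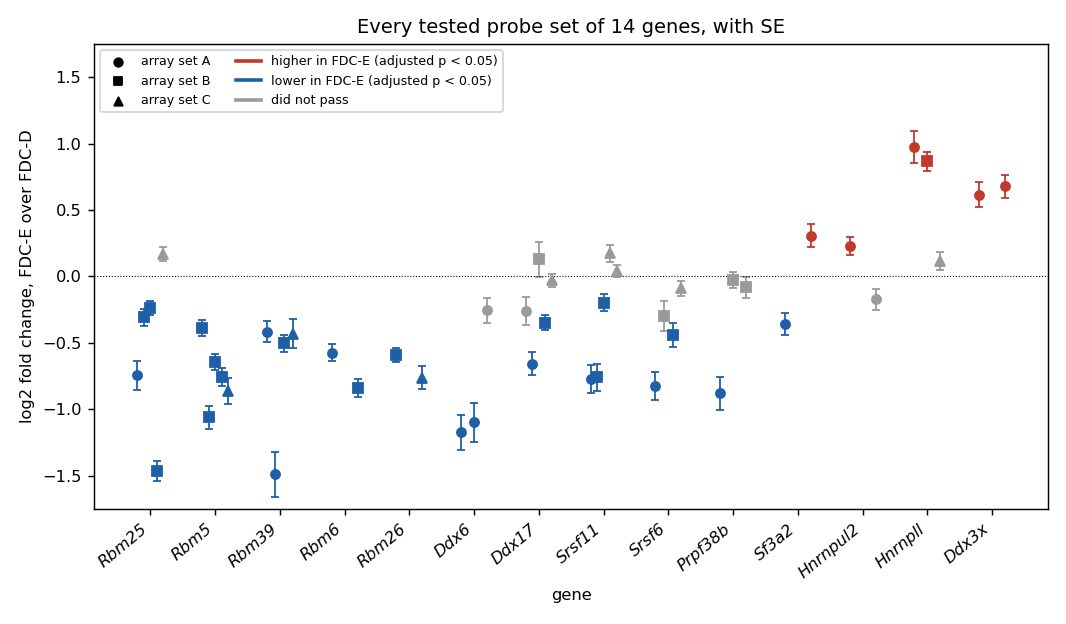
Log2 fold change with SE of every tested probe set of 14 members, by array set (symbol) and call (colour). The probe sets of Rbm5, Rbm39, Rbm6 and Rbm26 all lie below 0, those of Rbm25 run from -1.46 to 0.17, and Hnrnpll and Ddx3x lie above 0 throughout.

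Most DEAD-box helicases did not pass. Of 29 tested, 6 were lower, 2 were higher and 21 did not pass. Ddx39b, known as Uap56, which acts in early spliceosome assembly and mRNA export, had 1328, 1514 and 1360.2 on the FDC-E arrays, against 2465 and 2427 on the FDC-D arrays. The groups were far apart, and it fell 1.70-fold (adjusted p = 0.000144); its upstream sequence is among those printed. Ddx5, a helicase coregulator of transcription and splicing, had 1165, 1762 and 1621 on the FDC-E arrays, against 2637 and 2692 on the FDC-D arrays and fell 1.74-fold (adjusted p = 0.00358). Its close relative Ddx17 had 1679.9, 2042 and 2086 in FDC-E and 2393 and 2265 in FDC-D at its brightest probe set and did not pass (log2 fold change -0.26, adjusted p = 0.0825). It passed there under quantile normalization (0.0205) and with median scaling (0.0312), and 2 other Ddx17 probe sets fell 1.58-fold and 1.27-fold, the first fitted without FDC-E sample 2, which has no value there. The remaining Ddx17 probe sets, on B and C, did not pass (log2 fold changes of 0.13 and -0.03).

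Ddx6, which represses translation and promotes decapping in P-bodies, fell strongly at 2 probe sets that cite the same transcript. Both carry a suffix that marks probe sets open to other transcripts or chosen under relaxed rules. One had 353, 475 and 329.6 on the FDC-E arrays, against 902 and 1048 on the FDC-D arrays and fell 2.26-fold (adjusted p = 0.000178), and the other fell 2.14-fold. The brightest probe set, from another transcript, had 534, 590.4 and 480.4 in FDC-E and 621 and 689 in FDC-D and did not pass (log2 fold change -0.26, adjusted p = 0.0601), except under both scalings (0.00804 and 0.0163) and without FDC-E sample 2 (0.0259). Ddx54, of the nucleolus, had 1007, 1061 and 1004 on the FDC-E arrays, against 1554 and 1458 on the FDC-D arrays of set C and fell 1.45-fold, with 1.43-fold on A (adjusted p = 0.0605 without FDC-D sample 1). Its other probe sets on C did not pass (log2 fold changes of -0.0046 and -0.05). The mRNA export helicase gene Ddx19b fell 1.32-fold. Ddx24 and Ddx27 fell 1.24-fold and 1.19-fold on B, nucleolar helicases that both lost the call without FDC-D sample 1 (adjusted p = 0.0527 and 0.136). Ddx24 also lost it without FDC-D sample 2 (0.0864) or FDC-E sample 3 (0.0695), and did not pass at its probe sets on A. The spliceosomal helicases Ddx23, Ddx42 and Ddx46 missed the threshold at log2 fold changes of -0.17, -0.12 and -0.14.

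Ddx3x, an X-linked helicase that helps to start translation on structured mRNA, was higher in FDC-E at both probe sets. At one it had 938, 1108 and 1042 on the FDC-E arrays, against 589 and 629 on the FDC-D arrays and rose 1.60-fold (adjusted p = 0.000394), and at the other 2961, 3580.3 and 3180.3 on the FDC-E arrays, against 2029.6 and 2132 on the FDC-D arrays and rose 1.53-fold. Neither pair of groups overlapped, and both rises passed in every alternative run. Ddx20, the Gemin3 subunit of the complex that loads Sm rings, had 306, 341 and 315 in FDC-E and 269 and 275 in FDC-D of set C and rose 1.15-fold (adjusted p = 0.0448). It missed the threshold with any 1 of 4 arrays of the set left out and under 4 other settings (adjusted p = 0.0523 to 0.215). Ddx1, of the tRNA ligase complex, rose 1.27-fold and 1.17-fold at 2 probe sets of A and had log2 fold changes of 0.06 and 0.01 on C. The first rise was lost without FDC-D sample 2 (adjusted p = 0.0724) and the second under 8 settings (0.0512 to 0.387). Ddx58, which encodes the RNA sensor RIG-I, had 938 and 872 on the FDC-E arrays, against 922 and 992 on the FDC-D arrays and did not pass (log2 fold change -0.07 ± 0.07, SE).

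Genes of the same pathways outside the 10 families also held more falls than rises, less so for 3′ processing than for splicing. Of 83 tested splicing genes 37 were lower (44.6%) and 4 higher (4.82%), with a median log2 fold change of -0.20. Of 16 tested 3′ processing genes 4 were lower (25.0%) and 2 higher (12.5%), with a median of -0.09. Of all 121 listed, 99 were tested, 41 were lower in FDC-E (41.4%), 6 were higher (6.06%) and 52 did not pass. Their median log2 fold change was -0.19, and among all tested genes 14.4% were lower and 19.2% higher. Without FDC-D sample 1 or 2, 19 were lower in either fit, beside 9.47% and 8.68% of all tested genes. Celf2, a splicing regulator of lymphocytes among other tissues, had 672, 1039 and 839 on the FDC-E arrays, against 2061 and 1919.7 on the FDC-D arrays of set C and fell 2.29-fold (adjusted p = 0.000572). Wdr33, the subunit that reads AAUAAA together with Cpsf4, had 145 and 155 in FDC-E and 336 and 301 in FDC-D of set B and fell 1.73-fold. Acin1 and the SR protein kinase gene Clk4 fell 1.69-fold and 1.68-fold. Raly, an hnRNP-like protein gene, had 1309, 1509 and 1115 on the FDC-E arrays, against 529 and 553 on the FDC-D arrays and rose 2.21-fold (adjusted p = 0.000104). Pcbp1, which binds C-rich RNA, had 1969, 2033 and 1729.9 in FDC-E and 1117 and 1066 in FDC-D and rose 1.69-fold. Qk, the quaking gene, rose 1.45-fold (adjusted p = 0.0674 without FDC-D sample 1), and Bud31 1.31-fold (0.0967 without FDC-D sample 2).

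Probe sets of a gene often differed in whether they passed. Of 63 member genes with more than 1 tested probe set, 9 were lower at all, 1 was higher at all, 28 passed at none, and 24 had at least 1 that passed and 1 that did not. Prpf31, of the tri-snRNP, Rbm28, of the nucleolus, and Ddx50 did not pass at the brightest probe set and fell 1.27-fold, 1.25-fold and 1.53-fold at a dimmer one. Counted by any probe set, 53 genes were lower and 10 were higher, Sf3a2 in both. Of the 226 tested member probe sets 58 carried a suffix other than a plain _at, which marks sequence shared between transcripts or probes chosen under relaxed rules. Among them were the only tested probe sets of Snrpe, Snrpb2, Srsf3 and Ddx20. The passing probe sets of Ddx54 and Rbm8a on C and the brighter passing probe set of Ddx3x also carried such a suffix. With plain probe sets alone, 39 genes were lower and 5 higher. No share of all genes under the same rules is given beside these counts. The backgrounds of 14.4% and 19.2% were counted with the brightest probe set of any kind per gene and do not apply to them.

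**Figure D5:**
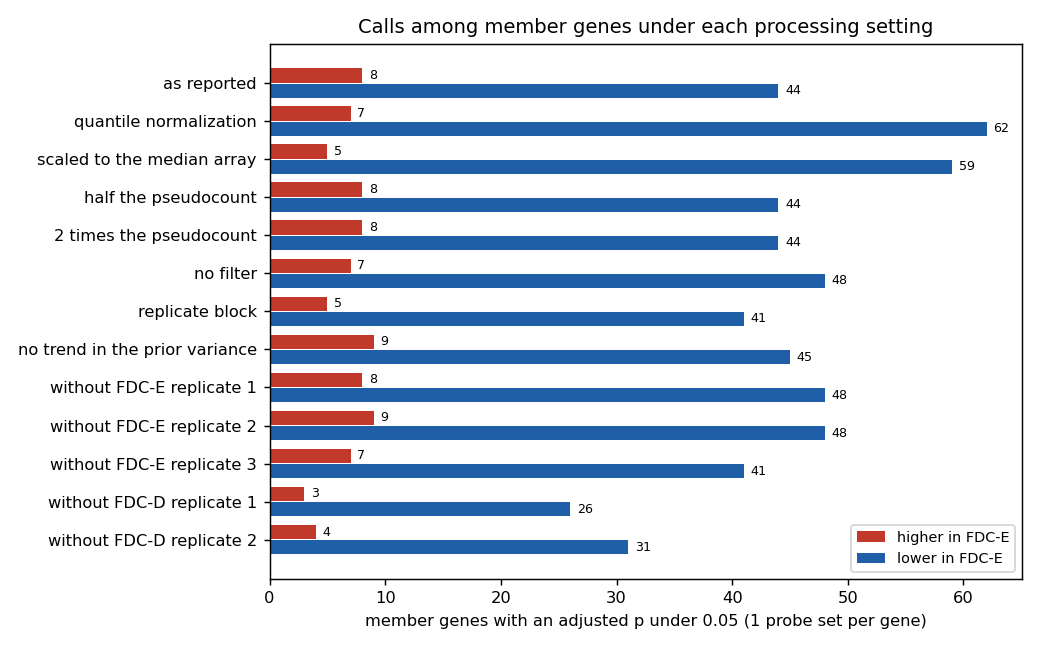
Number of member genes higher and lower in FDC-E under the reported setting and 12 alternatives, with 1 probe set per gene. Falls outnumber rises in each, and both are fewest without FDC-D sample 1 (26 and 3).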

How the data were processed

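RNA was measured on 14 oligonucleotide arrays of 3 sets. The authors deposited linear intensity values, 1 per probe set and array; no source used here says how they were summarised or scaled. On set A, 893 probe sets lacked a value for FDC-E sample 2; 11 were members, and the 8 tested were fitted on the other arrays. Probe sets were named through the platform annotation, with symbols updated by Entrez identifier to the RefSeq table of GRCm38.p6. A further 17 probe sets match the rule by 1 of several symbols and were left out.

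Each set was fitted alone in R 4.3.3 with limma 3.58.1 (lmFit, eBayes with a trended prior variance) on log2(intensity + pseudocount), the pseudocount being the 20th percentile of the set (88.5, 81.2 and 53.1). This understates the folds of dim genes. Probe sets above the 40th percentile of an array on at least 2 arrays were tested, two-sided, with Benjamini-Hochberg adjustment over all tested probe sets of the set and a threshold of 0.05. An exact permutation test cannot go below 0.1 with 3 against 2 arrays, or 0.333 with 2 against 2. The number of arrays limits the precision. For counts by gene, the brightest tested probe set was taken, from the set where its level ranks highest. The scripts were tested on simulated data.

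The genes described in full followed a rule: by size of change without overlap, 10 rises and 10 falls on A and 5 of each on B and on C, the brightest of each family, those passing both ways, and a list of members with known roles. Others complete a family and were chosen after their values were seen. The members, lists and rule were chosen with earlier results of these data known.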

Additional observations from a re-analysis of the deposited data

How the results depend on the processing

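Of the 78 member probe sets lower in FDC-E, 55 passed in the same direction in every alternative run, and of the 13 that were higher, 4 did, those of Hnrnpll on sets A and B and both of Ddx3x. None of the 91 changed sign. Scaling to the median array gave 5 member genes higher and 6 higher probe sets on set A and 1 on C, and quantile normalization 1 on C. With no filter, 2 probe sets were higher on B. Plain probe sets alone gave 5 genes higher, 6 higher probe sets on A, 0 on C (limma; 2 in the reported fit) and 3 lower on C. Halving or doubling the pseudocount kept every count of members within 1.5 times. Leaving out each array gave 3 to 9 member genes higher and 26 to 48 lower. By set, the higher probe sets ran from 4 to 12 on A, 1 to 1 on B and 0 to 3 on C, and the lower ones from 24 to 49, 14 to 28 and 3 to 9. The other pathway genes ran from 19 to 44 lower and 4 to 8 higher. Over the fits that leave out an array, the median log2 fold change was -0.17 to -0.15 for the member genes and 0.01 to 0.02 for all genes. Fits that leave 1 array in a group assume that it varies like the other group. Log2 fold changes that passed in no such fit turned sign when an array was left out, running from -0.078 to 0.023 for Cstf2 on C, -0.34 to 0.0016 for Rbmx on C, -0.088 to 0.019 for Srsf2 on A, -0.24 to 0.083 for Srsf1 on B and -0.19 to 0.021 for Prpf38b on B. The cause was not tested, beyond the fewer arrays.

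With the replicate number as a block, 5 member genes were higher and 41 lower, and 0 probe sets were higher on C. Set B left no residual degrees of freedom and kept its fit. Sample 3 exists only in FDC-E, so on A and C the block takes it up. Where every array has a value, the fold change equals that without FDC-E sample 3, as for Sf3b6 (log2 fold change -0.20 in both). These settings are therefore not separate checks. The deviations of same-numbered samples correlated at 0.03 and 0.06 on A and -0.31 and -0.15 on C, so the numbers are not taken to pair the samples. Dim members are limited by background: 102 probe sets were not tested.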

Other observations

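Members best known from germ cells or muscle were looked at after their values were seen. Ddx4, the germ cell helicase Vasa, had 127, 118 and 113 on the FDC-E arrays, against 103 and 102 on the FDC-D arrays of set C and did not pass (log2 fold change 0.15, adjusted p = 0.0872). Ddx25, a testis helicase, had 225, 236 and 232 in FDC-E and 222 and 224 in FDC-D and did not pass (0.04), nor did Rbmxl2 (-0.11) or the muscle splicing regulator Rbm24 (0.09). Rbm20, Rbm44, Rbm46 and Ddx43 lay below the filter.

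Members linked to the nuclear exosome, interferon or the nucleolus were read in the same way, and none of the 3 named here passed. The nucleolar members described above, Ddx54, Ddx24, Ddx27 and Rbm28, were lower in FDC-E at some of their probe sets. Rbm7, which brings RNA to the nuclear exosome, had 905 and 1166 on the FDC-E arrays, against 862 and 824 on the FDC-D arrays of set B and missed the threshold (log2 fold change 0.26, adjusted p = 0.0700). Ddx60, an interferon-induced helicase, had 224 and 253 in FDC-E and 281 and 276 in FDC-D (log2 fold change -0.17, adjusted p = 0.0619). Ddx21, of the nucleolus, had 609 and 528 in FDC-E and 536 and 513 in FDC-D (0.10).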
